A study of Rattus norvegicus with 6 samples.

Results

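The genes described here are 8 members of the purinergic system, which senses and clears nucleotides outside cells: the P2Y receptors P2ry12, P2ry13 and P2ry6, the P2X channels P2rx4 and P2rx7, the ectoenzymes Entpd1 and Nt5e, and the adenosine receptor Adora2a. They were chosen by name, 8 of the 28615 gene names shared by the time-course tables and 8 of the 25199 genes of the injected-cord tables, and all 8 were present in both. Their levels were read in single-cell RNA-seq of rat spinal cord (labelled Rattus norvegicus, strain SD, 6 to 8 weeks old) in 6 libraries, 1 per group: intact cord, cord 1, 3 and 7 days after a crush at thoracic level 10, and crushed cord that received an injection of either PBS or MPSS at 10 mg/ml in PBS on day 3 and was collected 2 weeks after injury. The labels give 5 animals per condition, a 5-mm section and a 40-µm strainer, so each library pools animals, and differences between libraries have no replicate check and no test. The labels also attach the crush treatment to the intact library, and its title was followed. The gene names of the time-course tables have the form used for mouse genes while the labels name rat, so the species of those tables is not settled here, and levels were never compared between the time-course and the injected libraries. Only ratios of classes taken within a library are set side by side across them.

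Damaged and active cells release ATP, ADP and UDP. ADP acts on P2ry12, which in the central nervous system marks surveying microglia and steers their processes toward injury, and on P2ry13. UDP acts on P2ry6, a receptor linked to microglial phagocytosis, while ATP opens P2rx4 and, at high concentrations, P2rx7, which is upstream of inflammasome activation. Entpd1 (CD39) degrades ATP and ADP to AMP, Nt5e (CD73) turns AMP into adenosine, and Adora2a is a receptor for that adenosine.

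Cells were assigned to classes one by one from marker lists that hold none of the 8 genes. "Phagocytes" are all cells of the pooled macrophage and microglia class. Within it, a score that contrasts microglial with macrophage/monocyte markers defined 3 ranges, called here microglia, between and macrophages, which are ranges of a score and not established types. The phagocytes numbered 870 in the intact, 4025 in the day 1, 6551 in the day 3 and 5048 in the day 7 library, of which 801, 1562, 2821 and 3734 were microglia and, after injury, 2167, 3232 and 630 were macrophages. The 48 macrophages of the intact cord were under the minimum of 50 cells and are not described. The PBS library held 705 phagocytes and the MPSS library 1018. Cells within 0.05 of a score boundary made up 1.38% of phagocytes in the intact library, 5.39%, 7.28% and 8.84% at days 1, 3 and 7, and 24.8% with PBS and 25.6% with MPSS, where the ranges grade into each other. The microglial markers themselves were lower in the gated microglia after injury, with a median over cells of 175 per 10000 UMIs in the intact library and 46.5, 109 and 98.1 at days 1, 3 and 7. The macrophage markers had medians of 4.06, 5.16, 20.1 and 27.8 per 10000 in the same cells. Cells with a median depth of 3263 UMIs in intact microglia, 10874 at day 1, 7186 at day 3 and 3862 at day 7 gave the microglial values, so shares of cells with a UMI are also given after thinning each cell to 1000 UMIs. Any 2 libraries shared 5 to 91 cell barcodes.

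Levels are unique molecular identifiers (UMIs) of a gene summed over the cells of a class per 1000000 UMIs of those cells (CPM). The 95% intervals are exact and cover counting error only. A gene is called higher or lower where the ratio is at least 2-fold with at least 20 UMIs over both sums. The rat RefSeq promoter table (GRCr8, 250 bases before to 50 after the start) matched 5 of the 8 members, P2ry13, P2rx4, P2rx7, Entpd1 and Nt5e. Shown are the promoters of the 3 of them whose phagocyte level was furthest from the intact library at day 1: P2ry13 at chr2:145622735-145623034 on the minus strand, Entpd1 at chr1:249422614-249422913 on the plus strand and Nt5e at chr8:98150675-98150974 on the plus strand. Capitals mark matches, on either strand, to GAGGAA (the core bound by PU.1-type factors of myeloid cells), TGANTCA (AP-1), ACGTG or GCGTG (hypoxia-response cores).
P2ry13: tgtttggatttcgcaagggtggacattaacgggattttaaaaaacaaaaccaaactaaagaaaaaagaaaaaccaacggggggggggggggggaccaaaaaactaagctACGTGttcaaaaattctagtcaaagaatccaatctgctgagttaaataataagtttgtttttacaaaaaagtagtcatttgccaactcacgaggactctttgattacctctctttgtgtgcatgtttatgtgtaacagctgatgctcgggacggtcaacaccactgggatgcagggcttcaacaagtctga
Entpd1: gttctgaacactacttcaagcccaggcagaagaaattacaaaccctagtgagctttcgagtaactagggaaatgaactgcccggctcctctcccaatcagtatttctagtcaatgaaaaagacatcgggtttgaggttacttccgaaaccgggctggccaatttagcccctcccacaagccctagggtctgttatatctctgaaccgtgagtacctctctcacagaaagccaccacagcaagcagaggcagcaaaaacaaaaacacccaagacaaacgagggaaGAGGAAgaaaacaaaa
Nt5e: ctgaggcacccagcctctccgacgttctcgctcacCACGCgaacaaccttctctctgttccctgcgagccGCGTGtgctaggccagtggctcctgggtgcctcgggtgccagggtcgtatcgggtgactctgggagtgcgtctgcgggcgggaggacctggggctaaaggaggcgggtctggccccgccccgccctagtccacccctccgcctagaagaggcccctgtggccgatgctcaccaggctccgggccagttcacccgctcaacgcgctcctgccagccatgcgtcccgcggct
Entpd1 held 1 GAGGAA, 35 bases after the start, P2ry13 held 1 ACGTG and Nt5e 2 GCGTG, and none of the 3 held TGANTCA. Of all 33469 promoters in the table, 27.6% held GAGGAA, 7.33% TGANTCA, 19.3% ACGTG and 29.7% GCGTG, so these matches are common. In the rat gene table of the same build P2ry13 and P2ry12 are neighbours. The 3 promoters also differ in base composition, with 40.7% G and C in P2ry13, 47.0% in Entpd1 and 69.3% in Nt5e.

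In the intact cord the microglia carried 6 of the 8 genes, led by P2ry12, and the other two members were nearly absent from them. One day after the crush 3 members, P2ry12, P2ry13 and Entpd1, were at least 2-fold lower in microglia, and none was higher, while P2ry6, P2rx4 and P2rx7 lay within 2-fold. Nt5e and Adora2a did not reach 20 UMIs in microglia in that comparison. Of all genes with enough UMIs in microglia, 22.4% were at least 2-fold lower at day 1 and 17% at least 2-fold higher, so a 2-fold difference by itself was common. The same 3 members were lower at day 3, when 21.8% of genes were lower and 11% higher, and at day 7, when 26% were lower and 7.24% higher. In all phagocytes together, day 1 against intact had 3 members lower (background 24%) and 2 higher (background 15.9%), the latter being Nt5e and Adora2a. Day 3 against intact had 4 lower (28.9%), with P2rx7 added, and 1 higher (12%). Day 7 against intact had 3 lower (28%) and 1 higher (7.21%). The median log2 ratio of the eligible members in microglia was -1.65 at day 1, -1.25 at day 3 and -1.23 at day 7, beside -0.14, -0.37 and -0.56 over all eligible genes. These 3 comparisons share the intact library.

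**Figure D1:**
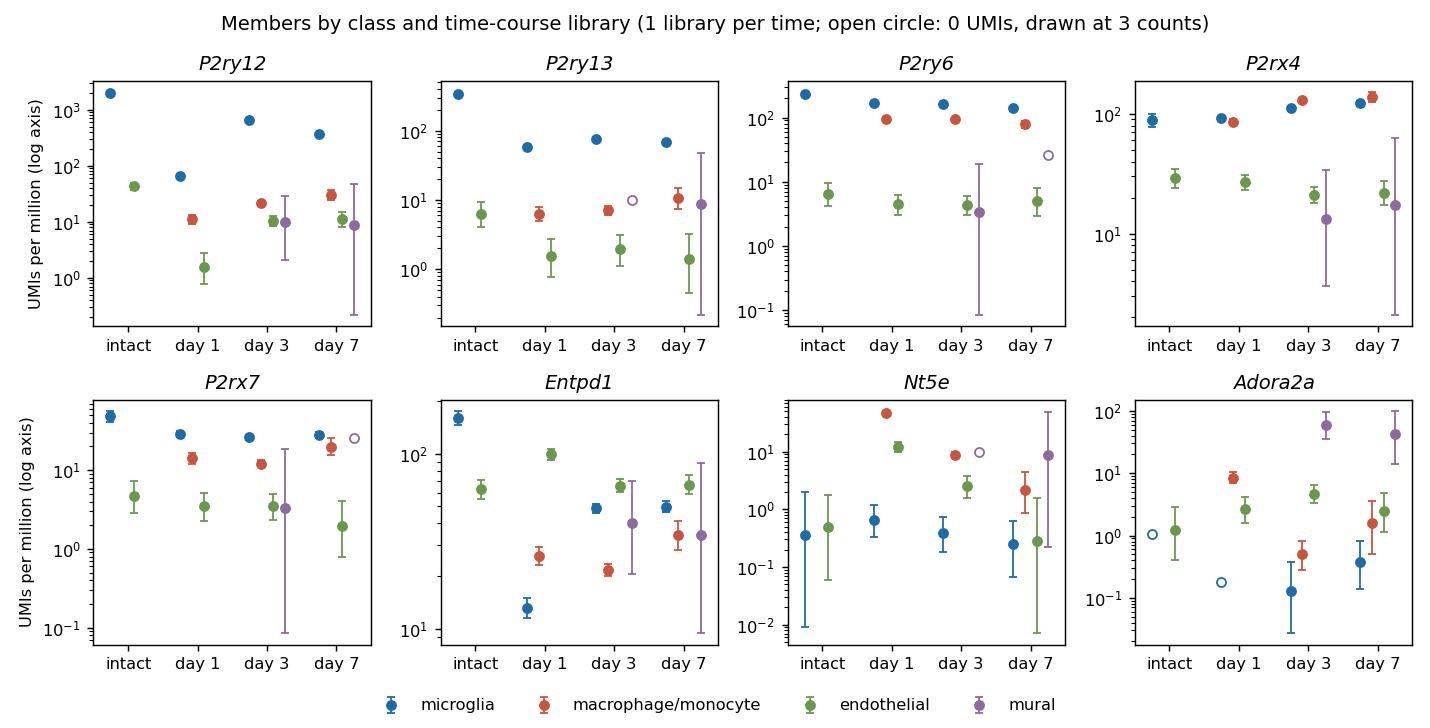
Level of each member in CPM (log axis) in microglia, macrophages, endothelial and mural cells of the 4 time-course libraries, with exact 95% counting intervals; classes under 50 cells are left out, and open circles are sums of 0 UMIs drawn at the level of 3 counts. Microglial P2ry12 goes from 2007 in the intact library to 66.5, 652 and 363 at days 1, 3 and 7, while P2rx4 stays between 89.0 and 122.

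P2ry12, the ADP receptor, had 2007 CPM in intact microglia (95% interval 1955 to 2060, 5659 UMIs), 66.5 CPM at day 1 (62.6 to 70.5), 652 CPM at day 3 (642 to 663) and 363 CPM at day 7 (354 to 372). The 4 values do not overlap in their intervals, and their order was intact, day 3, day 7, day 1. Day 1 was 30.2-fold lower than intact (28.3 to 32.2), day 3 was 3.08-fold lower and day 7 was 5.53-fold lower. Day 3 was 9.81-fold above day 1 (9.23 to 10.4), and day 7 was 1.80-fold below day 3. The share of microglia with a P2ry12 UMI was 98.1% in the intact library, 43.0% at day 1, 92.5% at day 3 and 67.2% at day 7, and after thinning 83.4%, 6.72%, 47.8% and 31.9%. The unthinned day 1 share came from cells of more than 3 times the intact depth, and the thinned shares follow the CPM in order.

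Macrophages held less P2ry12 than microglia of the same library, with 11.1 CPM at day 1, 21.3 CPM at day 3 and 29.9 CPM at day 7, which is 5.99-fold, 30.6-fold and 12.1-fold lower. The cells of the between range were intermediate, with 26.5, 59.4 and 44.7 CPM. Endothelial cells, a class that should lack the receptor, had 43.3, 1.53, 10.5 and 11.1 CPM from intact to day 7, or 2.16%, 2.31%, 1.61% and 3.06% of the microglial level. The summed microglial markers stood at 2.13%, 2.72%, 2.02% and 3.51% of their microglial level in the same endothelial cells. P2ry12 in endothelial cells was therefore not read as expression, and its source was not tested. In ependymal cells it went from 45.6 CPM in the intact to 1.51 CPM in the day 1 library. The macrophage values are not far above that level: at day 3 and day 7 the endothelial level was 49.1% and 37.1% of the macrophage level, against 13.8% at day 1.

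P2ry13, the second ADP receptor, had 338 CPM in intact microglia (317 to 360), 58.2 CPM at day 1 (54.6 to 62.0), 75.8 CPM at day 3 (72.3 to 79.5) and 68.8 CPM at day 7 (64.8 to 73.0). It was 5.80-fold lower at day 1, 4.45-fold lower at day 3 and 4.91-fold lower at day 7, and the injured values lay within 1.30-fold of each other, with intervals of days 3 and 7 that overlap. P2ry13 thus differed from P2ry12 between days 1 and 3, at 1.30-fold higher (1.20 to 1.41) against 9.81-fold for P2ry12. In thinned microglia 30.8% of cells had a P2ry13 UMI in the intact library and 6.15%, 7.76% and 7.69% after injury. Macrophages had 6.35, 7.07 and 10.6 CPM at days 1, 3 and 7, between 6.49-fold and 10.7-fold below microglia of the same library, and endothelial cells 1.39 to 6.22 CPM. Over 34 class-by-library sums of the time course, the log levels of P2ry12 and P2ry13 had a Pearson r of 0.90, a description in which sums of 1 library share depth and free RNA.

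P2ry6, the UDP receptor, differed less with time and was shared more widely among phagocytes. Microglia had 230 CPM in the intact library (213 to 248.6), 169 CPM at day 1 (163 to 176), 160 CPM at day 3 (155 to 165) and 141 CPM at day 7 (135 to 147), so that intact was above each injured value and the ratios were 1.36-fold, 1.44-fold and 1.64-fold lower. Macrophages had 94.4 CPM at day 1, 96.0 CPM at day 3 and 78.0 CPM at day 7. Microglia were above macrophages by 1.79-fold, 1.67-fold and 1.80-fold, all under the 2-fold bound. The thinned share of microglia with a P2ry6 UMI was 18.4% in the intact library and 15.0%, 16.1% and 13.5% after injury. Outside phagocytes it lay between 0 and 10.3 CPM in the time course, except in neutrophils, which had 20.7 CPM at day 1 (50 UMIs), 49.2 CPM at day 3 (20 UMIs) and 14.7 CPM at day 7. The macrophage markers stood in those neutrophils at 74.3%, 32.1% and 38.8% of their macrophage level, some being shared between myeloid cells, and their part in the P2ry6 value was not tested.

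Of the ATP-gated channels, P2rx4, which in rodent spinal microglia is known for its part in pain after nerve injury, lay within 2-fold of intact in microglia at all 3 times on the CPM scale. Its level was 89.0 CPM in the intact library (78.3 to 101), 91.9 CPM at day 1 (87.3 to 96.6), 112 CPM at day 3 (108 to 117) and 122 CPM at day 7 (117 to 128). Intact and day 1 overlap, while day 7 was 1.37-fold above intact (1.20 to 1.57). Macrophages had 85.9 CPM at day 1, 131 CPM at day 3 and 139 CPM at day 7, and cells of the between range 90.7, 153 and 153 CPM. At day 1 macrophages and microglia did not differ beyond their intervals, and at days 3 and 7 the macrophages were 1.17-fold and 1.13-fold higher. P2rx4 was also the member found most evenly outside phagocytes: endothelial cells had 29.1, 26.8, 21.2 and 22.0 CPM from intact to day 7, fibroblasts 26.9 to 42.3 CPM, and the astrocytes, ependymal cells and oligodendrocyte precursors 11.1 to 38.9 CPM.

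The scaling of libraries bears on these small ratios. With TMM scaling the median gene of microglia shifts up by 0.14 at day 1, 0.35 at day 3 and 0.55 at day 7 on the log2 scale against intact, and that of phagocytes by 0.22, 0.45 and 0.57. Relative to that shift P2rx4 was at least 2-fold above intact at day 7 in both, with log2 ratios of 1.07 in phagocytes and 1.01 in microglia instead of 0.50 and 0.46. Microglial P2ry6 came to -0.16 at day 7 with TMM, instead of -0.71. P2ry6 came to -0.26 in phagocytes at day 7 and P2rx7 to -0.30, so both stayed below intact but closer to it.

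P2rx7, the low-affinity ATP channel, was at 48.2 CPM in intact microglia (40.5 to 57.1), 28.6 CPM at day 1 (26.1 to 31.3), 26.2 CPM at day 3 (24.1 to 28.4) and 28.2 CPM at day 7 (25.6 to 30.9). The intact value was above the injured values, which overlap one another, and the ratios were 1.69-fold, 1.84-fold and 1.71-fold lower. In all phagocytes the day 3 ratio was 2.58-fold lower (2.15 to 3.07), past the 2-fold bound that it did not reach in microglia. TMM scaling put that ratio at -0.92 on the log2 scale, under the 2-fold bound. Macrophages had 14.2 CPM at day 1, 12.05 CPM at day 3 and 19.97 CPM at day 7, which is 2.01-fold, 2.17-fold and 1.41-fold below microglia. Oligodendrocyte precursors stood close to microglia after injury, with 17.9 CPM at day 1 (14 UMIs), 22.2 CPM at day 3 (24 UMIs) and 24.3 CPM at day 7 (14 UMIs), where the microglial markers summed to 238 to 379 CPM, far below the 4875 to 10464 CPM of microglia. Intact ependymal cells had 17.7 CPM (33 UMIs), and endothelial cells 1.95 to 4.73 CPM.

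**Figure D2:**
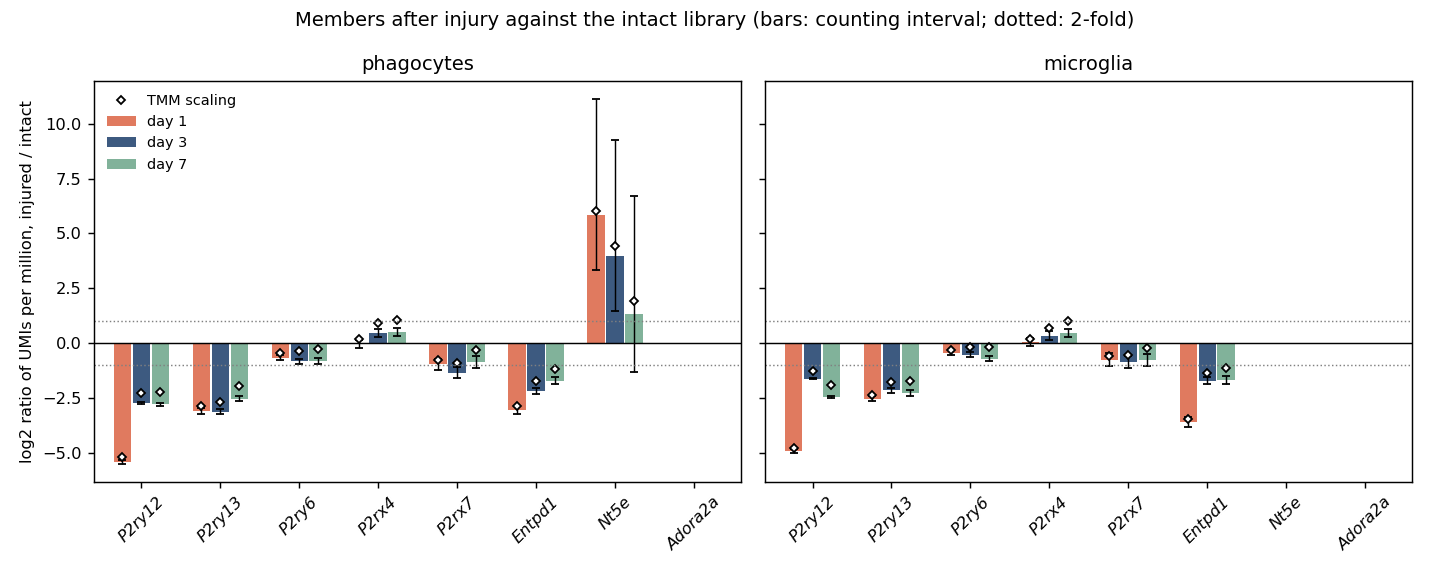
log2 ratio of each member's CPM at days 1, 3 and 7 to the intact library, in all phagocytes (left) and in microglia (right), with 95% counting intervals as whiskers, TMM-scaled values as open diamonds and 2-fold bounds dotted. P2ry12, P2ry13 and Entpd1 lie below the lower bound at all 3 times; Nt5e in phagocytes is above intact on 1 intact UMI with intervals that span several log2 units, and members with under 20 UMIs over both sums or a sum of 0 have no bar.

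Entpd1, the ectonucleotidase that removes ATP and ADP, had 161 CPM in intact microglia (147 to 177), 13.2 CPM at day 1 (11.5 to 15.1), 48.9 CPM at day 3 (46.1 to 51.8) and 49.9 CPM at day 7 (46.5 to 53.5). Day 1 was the lowest, 12.2-fold below intact (10.3 to 14.4), and days 3 and 7 overlap at 3.29-fold and 3.23-fold below intact. The thinned share of microglia with an Entpd1 UMI was 14.2% in the intact library and 1.28%, 5.21% and 5.52% after injury. Macrophages did not follow that course, with 26.2 CPM at day 1 (23.3 to 29.4), 21.7 CPM at day 3 (20.1 to 23.4) and 34.3 CPM at day 7. At day 1 microglia were therefore 1.98-fold below macrophages (1.66 to 2.37), and at day 3 they were 2.25-fold above them (2.04 to 2.48).

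The enzyme was not confined to phagocytes. Endothelial cells, in which Entpd1 is known as a vascular ectonucleotidase, had 62.9 CPM in the intact library (55.4 to 71.2), 99.5 CPM at day 1 (92.3 to 107), 65.6 CPM at day 3 (60.2 to 71.4) and 66.8 CPM at day 7 (58.6 to 75.8). They were 1.58-fold higher at day 1 than intact (1.37 to 1.83), in the opposite direction to microglia, and the other 3 endothelial values overlap. Endothelial cells thus stood at 39.1% of the microglial Entpd1 level in the intact cord and at 753%, 134% and 134% at days 1, 3 and 7, and from day 1 on they were the reported class with the highest Entpd1 level. Endothelial markers in microglia summed to 483 CPM in the intact library and 77.0 to 115 CPM after injury, against 11680 to 14410 CPM in endothelial cells. Neutrophils had 41.9 CPM at day 1 (101 UMIs) and 46.8 CPM at day 3 (19 UMIs), and fibroblasts 2.75 to 7.36 CPM.

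Nt5e, which makes adenosine from AMP, showed a different distribution from Entpd1. Macrophages had 47.4 CPM at day 1 (43.4 to 51.6, 530 UMIs), 8.80 CPM at day 3 (7.77 to 9.92, 265 UMIs) and 2.18 CPM at day 7 (0.878 to 4.50, 7 UMIs). Day 3 was 5.39-fold below day 1 (4.64 to 6.27), and day 7 was 4.03-fold below day 3 (1.93 to 10.1). Microglia of the time course stayed at 0.355, 0.664, 0.391 and 0.249 CPM on 1, 11, 9 and 4 UMIs. They were 71.4-fold below macrophages at day 1 (39.6 to 144) and 22.5-fold below at day 3 (11.7 to 49.7). In all phagocytes Nt5e was at 0.322 CPM in the intact library, a single UMI, and at 18.2, 5.00 and 0.817 CPM at days 1, 3 and 7, a ratio of 56.6 at day 1 with an interval of 10.1 to 2238. The day 7 ratio of 2.54 has an interval of 0.403 to 105, and it is under 2-fold as a mean over cells. The share of macrophages with an Nt5e UMI was 18.3% at day 1, 6.96% at day 3 and 1.11% at day 7, and after thinning 4.98%, 0.681% and 0%, on 630 cells at day 7, where 3 cells would be 0.476% and the exact interval reaches 0.584%.

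Outside phagocytes Nt5e was found at day 1 in oligodendrocyte precursors, at 46.2 CPM (32.3 to 63.9, 36 UMIs), and in T and NK cells, at 57.8 CPM on 8 UMIs. Fibroblasts had 8.65 CPM at day 1 (16 UMIs), 27.5 CPM at day 3 (50 UMIs) and 0 UMIs at day 7. Endothelial cells went from 0.498 CPM in the intact library to 12.1 CPM at day 1 (87 UMIs), 2.53 CPM at day 3 and 0.278 CPM at day 7. The endothelial Nt5e level was 25.6% and 28.8% of the macrophage level at days 1 and 3, where the summed macrophage markers stood at 9.18% and 5.69% of theirs.

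Adora2a, the adenosine receptor, was the member with the fewest UMIs in phagocytes. It had 0 UMIs in intact phagocytes, where 3 counts would be 0.967 CPM and the exact interval reaches 1.19 CPM, and 3.39 CPM at day 1 (2.76 to 4.12, 101 UMIs), at least 3.51-fold higher against the floor of 3 counts over the intact sum. At day 3 it had 0.314 CPM (18 UMIs), 10.8-fold below day 1 (6.50 to 19.0), and at day 7 0.559 CPM (13 UMIs). Of the 101 day 1 UMIs 95 lay in macrophages, at 8.50 CPM (6.87 to 10.4), and 0 in microglia, so macrophages were at least 46.9-fold higher. In 4.11% of day 1 macrophages a UMI was detected, 0.784% after thinning. Mural cells of the vessel wall had 60.0 CPM at day 3 (35.6 to 94.8, 18 UMIs) and 43.2 CPM at day 7 (14.02 to 101, 5 UMIs), above the 4.70 and 2.50 CPM of endothelial cells. Mural cells of the intact and day 1 libraries were under 50 cells and have no value here.

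Between injured times fewer members differed. In phagocytes day 3 against day 1 had 1 member higher, P2ry12 at 6.45-fold (6.09 to 6.84), beside 8.32% of all genes, and 2 lower, Nt5e at 3.64-fold and Adora2a at 10.8-fold, beside 12.2%. Day 7 against day 3 had no member higher, beside 5.03% of genes, and 1 lower, Nt5e at 6.13-fold (3.85 to 10.3), beside 6.33%. At day 3 against day 1, Entpd1 was also 3.70-fold higher in microglia (3.20 to 4.30). The remaining members at day 7 against day 3 lay within 2-fold in phagocytes, among them P2ry13, which was 1.497-fold higher at day 7 in all phagocytes and 1.10-fold lower in microglia. In macrophages alone 1 member was called higher at day 7, Adora2a at 1.56 CPM against 0.498 CPM at day 3, on few UMIs. There 1 was called lower, Nt5e at 2.18 CPM against 8.80 CPM. The share of all genes called in macrophages is not given here, so these calls are values only. The share of microglia among all kept cells went from 30.5% at day 3 to 50.01% at day 7. That of macrophages went from 34.9% to 8.44%, and that of the between range from 5.38% to 9.16%. Cells of the between range carried macrophage markers at medians of 202 and 348 per 10000 UMIs at days 3 and 7. The macrophages had 236 and 353, so the shares depend on the score boundaries. The phagocyte sums of the 2 days thus hold different mixtures.

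The number of members found in a cell summarises these values. After thinning, 8.36% of intact microglia had a UMI of none of the 8 genes, against 68.0% at day 1, 33.9% at day 3 and 44.8% at day 7. Microglia with UMIs of 3 or more members made up 18.5% in the intact library and 0.448%, 3.93% and 2.12% after injury. Macrophages had none of the genes in 74.3% to 75.7% of cells at all 3 times. At day 1 microglia and macrophages thus lay within 8 percentage points of each other, which was not the case at days 3 and 7.

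**Figure D3:**
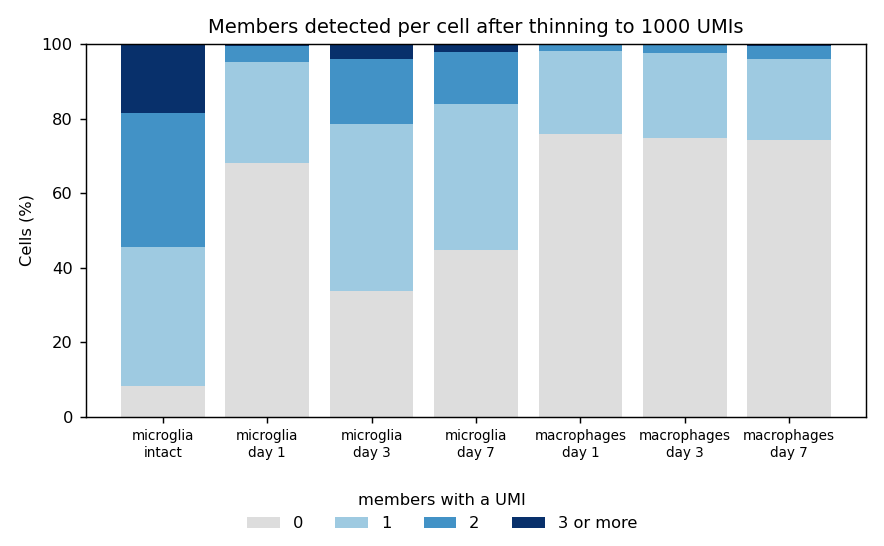
Percent of cells with a UMI of 0, 1, 2 or 3 or more of the 8 genes after each cell was thinned to 1000 UMIs, for microglia of the 4 time-course libraries and macrophages of the 3 injured ones. The lowest segment, cells with none, is 8.36% in intact microglia and 68.0% in day 1 microglia, close to the 75.7% of day 1 macrophages.

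Microglia and macrophages were also set side by side within each library. At day 1 microglia were at least 2-fold higher for 3 members, P2ry12, P2ry13 and P2rx7, where 25% of all genes were, and lower for 2, Nt5e and Adora2a, where 11.4% were. At day 3 they were higher for 4, the same 3 and Entpd1, beside 17.2% of genes, and lower for Nt5e, beside 8.28%. At day 7 they were higher for P2ry12 and P2ry13, beside 12.3%, and lower for none, beside 7.79%. The score that splits the classes contains none of the 8 genes but uses other microglial identity genes, and its part in these ratios was not tested. In the injected cords, microglia were higher for 5 members with PBS (11.3% of genes) and for 5 with MPSS (11.7%), and lower for none (8.65% and 7.5%). The score there used 8 of the 9 microglial and 7 of the 9 macrophage/monocyte markers, the others not being among their gene names. The time course used all 9 of each.

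**Figure D4:**
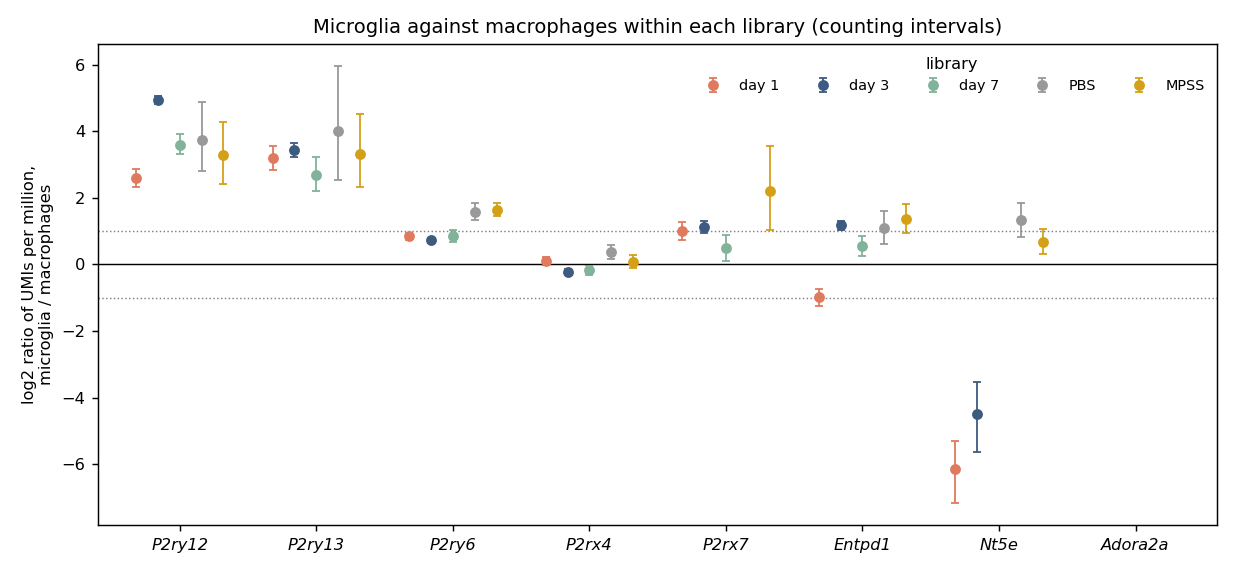
log2 ratio of CPM in microglia to macrophages of the same library for each member, with 95% counting intervals and dotted 2-fold bounds; pairs with under 20 UMIs or a sum of 0 are not drawn. P2ry12 and P2ry13 are above 2-fold in all 5 libraries, P2rx4 lies near 0, Entpd1 is at -0.99 at day 1 and above 0 in the others, and Nt5e is at -6.16 and -4.49 at days 1 and 3 and at 1.33 and 0.69 with PBS and MPSS.

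The injected cords were described on their own, since their tables name genes by another annotation. The gated microglia of these libraries carried microglial and macrophage markers at similar medians, 12.1 and 11.5 per 10000 UMIs with PBS and 11.7 and 8.62 with MPSS, so the name rests on the score alone. In the PBS library the order of the members in microglia was P2ry6 at 164 CPM (148 to 182), P2rx4 at 140 CPM (124 to 156), then Nt5e at 39.3 CPM (31.4 to 48.5), P2ry12 at 37.0 CPM (29.4 to 46.0) and Entpd1 at 36.5 CPM (28.96 to 45.4), which do not differ beyond their intervals, then P2ry13 at 17.8 CPM (12.7 to 24.3) and P2rx7 at 5.48 CPM (12 UMIs). Adora2a had 0 UMIs there. P2ry12 was thus not the leading member in the cells gated as microglia 2 weeks after injury, and it was still 13.5-fold above the macrophages of that library (10 UMIs). In oligodendrocytes, which should lack P2ry12, 1 UMI was found with PBS and 0 with MPSS.

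Nt5e was found in several classes of the injected cords. Fibroblasts had 55.2 CPM with PBS and 44.4 CPM with MPSS, microglia 39.3 and 35.3 CPM, oligodendrocytes 25.8 and 30.1 CPM and macrophages 15.6 and 21.9 CPM. Microglia were 2.51-fold above macrophages with PBS (1.77 to 3.57) and 1.61-fold with MPSS (1.23 to 2.11). Oligodendrocyte markers in microglia stood at 0.567% and 0.504% of their oligodendrocyte level, while microglial Nt5e stood at 152% and 117% of the oligodendrocyte level. In fibroblasts the summed microglial markers reached 76.1% of their microglial level with PBS and 84.2% with MPSS, with 4 and 6 of the 8 listed genes detected. In the same fibroblasts P2ry6 stood at 0.340% and 0.244% of its microglial level, and P2ry12 and P2ry13 at 0%. The source of the marker sum and its part in the Nt5e values were not tested.

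The comparison of MPSS with PBS asks whether the injected agent, named in the labels as MPSS and given in PBS, goes with other levels of these genes than PBS alone. In microglia none of 7 eligible members was at least 2-fold higher (2.83% of genes) or lower (1.65%). P2ry12 had 24.6 CPM with MPSS (19.8 to 30.4, 88 UMIs) and 37.0 CPM with PBS (81 UMIs), 1.5-fold lower (1.10 to 2.05). P2rx4 had 110 CPM with MPSS and 140 CPM with PBS, 1.27-fold lower (1.09 to 1.47), and P2ry6 had 192 and 164 CPM, 1.17-fold higher (1.03 to 1.33). Over the alternative processing settings the log2 ratio of P2rx4 ranged from -0.346 to 0.206, so its direction depended on the setting. P2ry13, P2rx7, Entpd1 and Nt5e had intervals that include 1, with widths that would still allow 1.63-fold, 3.09-fold, 1.38-fold and 1.20-fold higher levels with MPSS.

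In all phagocytes the same comparison had 1 member lower (2.04% of genes) and none higher (1.27%). The member was Adora2a, with 7 UMIs at 0.526 CPM with MPSS and 15 UMIs at 1.61 CPM with PBS, 3.07-fold lower (1.18 to 8.89), of which 5 and 14 UMIs lay in macrophages. Without the 1 cell of each library that holds the most Adora2a UMIs, under 20 UMIs remain and the call is not made. The other 7 lay between 1.38-fold lower, for P2ry12, and 1.16-fold higher, for P2rx7. Fibroblasts had 12 Adora2a UMIs with MPSS and 7 with PBS. The gated classes themselves held 14.5% and 14.5% of kept cells as microglia and 14.9% and 18.5% as macrophages with MPSS and PBS.

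**Figure D5:**
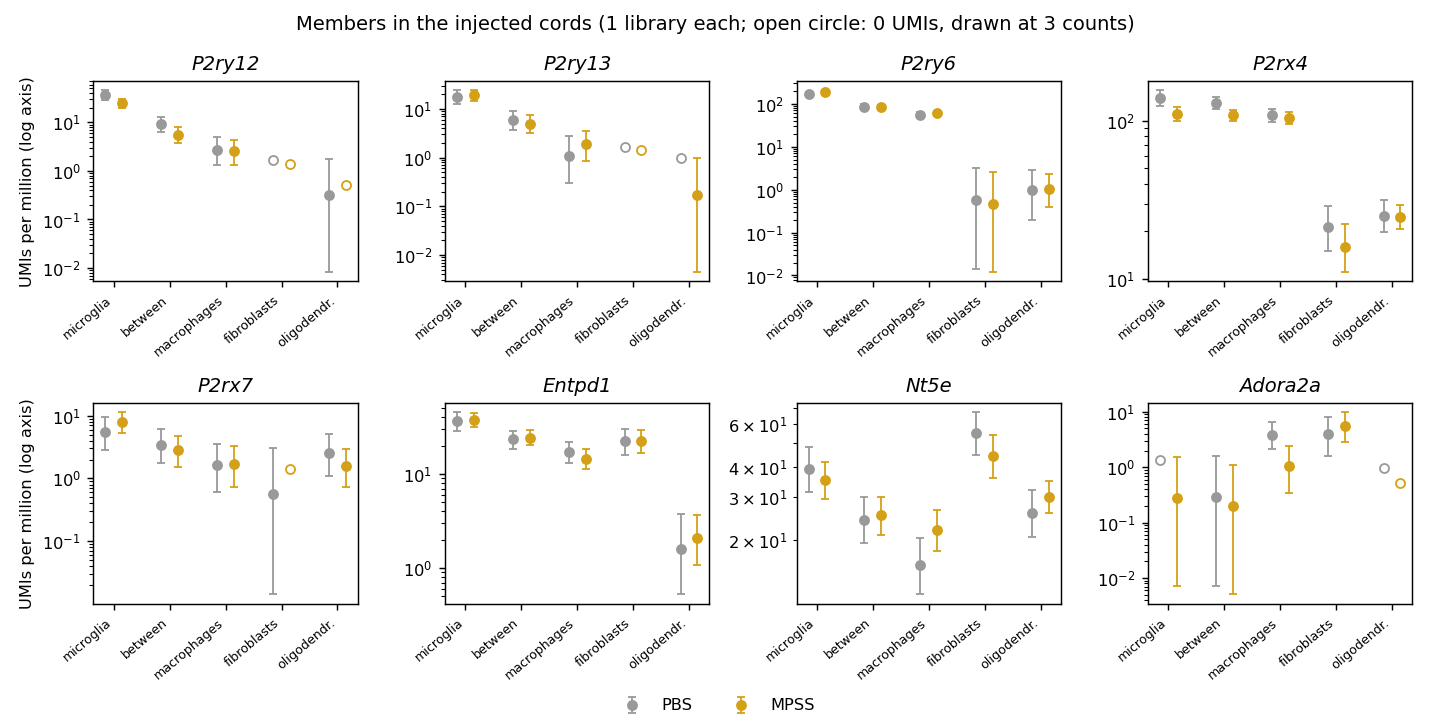
Level of each member in CPM (log axis) in 5 classes of the PBS and MPSS libraries with exact 95% counting intervals; open circles are sums of 0 UMIs drawn at the level of 3 counts. With PBS and MPSS, P2ry12 in microglia is at 37.0 and 24.6 and Nt5e in fibroblasts at 55.2 and 44.4. Adora2a rests on few UMIs, and its PBS and MPSS values in macrophages lie further apart.

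Beside the 8 members, 35 further genes of the pathway were read in 7 role groups. In phagocytes 26 of them were eligible at day 1 against intact, with 9 higher and 6 lower, where 15.9% and 24% of all genes were. At day 3 26 were eligible, with 9 higher and 10 lower, where 12% and 28.9% of all genes were, and at day 7 26, with 7 higher and 7 lower, where 7.21% and 28% were. Intact phagocytes were 801 microglia of 870 cells, while those of day 1 were 1562 microglia and 2167 macrophages of 4025, so the pooled sums hold different mixtures and the part of the mixture in these ratios was not tested. The adenosine receptors split: Adora2b, the low-affinity receptor, had 3 UMIs at 0.967 CPM in intact phagocytes and 25.2, 7.76 and 3.35 CPM at days 1, 3 and 7, a ratio of 26.0 at day 1 (8.87 to 127), while Adora3 had 84.1 CPM in the intact library and 22.2, 17.5 and 18.5 CPM after injury, 3.79-fold, 4.80-fold and 4.55-fold lower. Adora2b at day 1 was at 52.0 CPM in macrophages and 7.48 CPM in microglia, the same side as Adora2a. Adora3 was at 32.0 CPM in day 1 microglia and 5.90 CPM in macrophages, the same side as P2ry12.

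Among the other ectoenzymes, Bst1 and Cd38, which consume NAD, and Enpp1, which hydrolyses ATP, were higher in phagocytes at all 3 times. Bst1 had 3.22 CPM in the intact library and 69.1, 46.4 and 10.9 CPM after injury, 21.4-fold, 14.4-fold and 3.38-fold higher. Enpp1 had 2.58 CPM and then 10.2, 26.1 and 15.1 CPM, 3.96-fold, 10.1-fold and 5.85-fold higher. Cd38 had 6.77 CPM and then 33.6, 61.2 and 29.8 CPM. Bst1 at day 1 was at 175 CPM in macrophages, 114 CPM in neutrophils and 4.16 CPM in microglia. Cd38 was 4.96-fold, 9.04-fold and 4.403-fold higher. In microglia alone Cd38 had 2.13 CPM in the intact library (6 UMIs) and 2.41 CPM at day 1, and Enpp1 had 2.13 CPM (6 UMIs) and 10.1 CPM. Alpl, a phosphatase, had 10 UMIs in each of the intact and day 1 sums, 9.60-fold lower at day 1.

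Of the other P2Y receptors, P2ry2, which binds ATP and UTP, had 1.61 CPM in intact phagocytes and 11.1, 8.21 and 3.48 CPM after injury, 6.87-fold, 5.10-fold and 2.16-fold higher, with a day 7 interval that includes 1. In the group listed as adenosine clearance, the equilibrative transporter Slc29a3 had 112 CPM in the intact library and 32.6, 36.0 and 41.5 CPM after injury, 3.45-fold, 3.13-fold and 2.71-fold lower. Whether it acts on adenosine outside these cells was not tested. Slc17a9, the vesicular nucleotide transporter, was 2.71-fold, 4.00-fold and 2.50-fold lower. In the inflammasome group of 6 genes, phagocytes had 2 higher and 2 lower at day 1, beside 15.9% and 24% of all genes. They had 1 higher and 3 lower at day 3 (12% and 28.9%), and 1 and 1 at day 7 (7.21% and 28%). Microglia alone had 1 higher and 2 lower at day 1 (17% and 22.4%). At day 3 they had 1 and 0 (11% and 21.8%), and at day 7 1 and 1 (7.24% and 26%). The gene of this group with the largest ratio in phagocytes, the cytokine Il1b, had 115 CPM in the intact library. After injury it had 445, 315 and 540 CPM, 3.87-fold, 2.74-fold and 4.70-fold higher. At day 7 Gja1, a connexin, was 3.47-fold lower in the ATP release group, on 41 and 19 UMIs. With MPSS against PBS 22 pathway genes were eligible in phagocytes, and 1, P2ry10 on 9 and 16 UMIs, was 2.55-fold lower.

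The genes whose pattern was most like that of each member were ranked by Pearson r of log2 levels over the 34 class-by-library sums of the time course, among 10032 genes, with gate markers, ribosomal and mitochondrial genes and unnamed gene models left out. P2ry12 was closest to Hps4 and Mlxipl, both at r = 0.94, and Gal3st4 at 0.93. P2ry13 was closest to Gal3st4 at 0.94, Fgd2 at 0.93 and Susd3 at 0.92. P2ry6 was closest to Lgmn, a lysosomal protease, at 0.97, with Havcr2 and C3ar1 at 0.96. P2rx4 had Npc2, Pqlc2 and Bach2os at 0.89, and P2rx7 had Scamp2 at 0.86 with Kcnk13 and Abhd12 at 0.82. Entpd1 had Mef2a at 0.87 and Hsd17b11 and Gpr160 at 0.83. Nt5e was least like any other gene, with Pfkp at 0.70, Atg3 at 0.69 and Runx2 at 0.68, and Adora2a had Cox4i2 at 0.85, Ppp1r14a at 0.84 and P2ry14 at 0.83. Adora2a had 240 UMIs over the 34 sums, and its highest levels were those of mural cells, on 18 UMIs at day 3 and 5 UMIs at day 7. All r values given here are descriptions over sums that share libraries, and P2ry14 is itself a nucleotide-sugar receptor of the pathway list.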

How the data were processed

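The deposited files hold UMI counts per gene and cell, and per the labels the libraries come from pooled cord tissue of 5 animals per condition. The submitters' processing notes list Cell Ranger 3.0.2, and headers in the PBS and MPSS files give 3.1.0. Genome build and cell calling are not given in the sources used here. The intact and day 1 tables carry altered gene names, which were matched, leaving 77 of their names out.

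A cell was used if it had 200 or more genes, 500 or more UMIs and no more than 20% of UMIs from mitochondrial genes, which left 1377 to 9263 cells per library, with medians of 3090 to 10417 UMIs. Each cell took the best of the lineage lists (17 marker lists in all) with a score of at least 0.3, at least 3 markers detected and a margin of 0.1. Cells without that margin, 11 to 435 per library and possible doublets, were left out, and no doublet caller was run. The phagocyte class was split at a score difference of 0.15. The gating thresholds were set on the marker genes after the data were seen, and the members and lists were chosen with earlier results of these data known. Counts were summed per class and library. Levels carry exact Poisson intervals, shares exact Clopper-Pearson intervals and ratios exact conditional binomial intervals, all at 95% and covering counting error only. A sum of 0 was replaced by 3 counts over the group where a bound was needed. With 1 library per group there is no test. The ratio, its interval and the 2-fold rule were run on simulated phagocyte sums with counting error only. The gate, the split, the thinning and variation between libraries were not simulated. Named genes are the 8 members, the 1 or 2 pathway genes per role group with the largest ratio, and the 3 genes most like each member by Pearson r of log2(CPM + 10). Python 3.11.15, numpy 2.4.6, scipy 1.17.1, pandas 2.3.3 and, for TMM, R 4.3.3 with edgeR 4.0.16 were used.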

Additional observations from a re-analysis of the deposited data

Results flagged for a closer look

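Several members had opposite directions in 2 classes, times or sets of libraries under the same contrast. Each group is 1 library, so none of these differences was tested, and each contrast in which 1 value was at least 2-fold and both intervals excluded 1 is given as a value, as a log2 ratio of CPM.

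Entpd1 at day 1 against intact was 0.66 in endothelial cells and 1.77 in neutrophils (101 against 3 UMIs), and -3.08 in phagocytes. At day 3 against intact it was 1.93 in neutrophils and -2.18 in phagocytes. Between days 3 and 1 it was 1.89 in microglia and -0.27 in macrophages, and between days 7 and 3 it was -1.57 in neutrophils and 0.45 in phagocytes. Within libraries, microglia against macrophages gave -0.99 for Entpd1 at day 1, 1.17 at day 3, 0.54 at day 7, and, in the separately annotated injected libraries, 1.10 with PBS and 1.38 with MPSS.

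Nt5e in microglia against macrophages was -6.16 at day 1 and -4.49 at day 3. In the injected libraries, whose annotation differs, it was 1.33 with PBS and 0.69 with MPSS. The flag rests on this opposite sign of ratios taken within libraries, and levels were not compared between the time-course and the injected libraries. Between days 3 and 1 Nt5e was 1.67 in fibroblasts and -1.86 in phagocytes.

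In neutrophils P2ry13 was -1.66 between days 7 and 3, at 10.1 and 32.0 CPM, against 0.58 in phagocytes, whose mixture differs between the days. In microglia alone it was not higher at day 7, at 68.8 CPM against 75.8 CPM at day 3 with overlapping intervals. P2ry6 in neutrophils was 1.25 between days 3 and 1, against -0.16 in phagocytes, and 3.59 between day 3 and intact, on 1 intact UMI, against -0.84. Adora2a between days 3 and 1 was 0.83 in endothelial cells and -3.43 in phagocytes.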

How the results depend on the processing

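No paired analysis was possible because each group has 1 library, and no replicate could be left out. The alternatives were run for phagocytes in every comparison of libraries, and for microglia against intact and for MPSS against PBS. Ratios in other classes, of microglia between injured times and of microglia against macrophages were not run again. Of 245 values of called member ratios in the comparisons run, 242 kept their direction and stayed at least 2-fold, and 0 reversed. The 3 exceptions were P2rx7 in phagocytes at day 3 against intact, at -0.92 with TMM and -0.89 with median-of-ratios scaling, and Nt5e in phagocytes at day 7 against intact, at 0.55 as a mean over cells. Values of a member that fell under 20 UMIs or to a sum of 0 under an alternative are not among the 245. Reversal was counted for called ratios only. Over all 70 eligible member ratios of these comparisons, called or not, 164 of 640 values lay outside the counting interval of the main ratio. Counts of members moved as follows. In phagocytes at day 1 against intact, thinning to 1000 UMIs gave 1 higher and 5 lower. At day 3 against intact a minimum of 1 UMI gave 2 higher, and 1 in microglia. At day 7 against intact, phagocytes had 2 higher with TMM, median-of-ratios scaling or a minimum of 1 UMI, and 0 with a minimum of 100 UMIs, means over cells, thinning or without the top cell of each gene, while microglia had 1 higher with TMM, median-of-ratios scaling or a minimum of 1 UMI. At day 3 against day 1 phagocytes had 2 higher with TMM, median-of-ratios scaling, thinning or a stricter gate, and 1 lower with thinning. For MPSS against PBS, phagocytes had 0 lower with a minimum of 100 UMIs, thinning or without the top cell, and microglia 1 higher with a minimum of 1 UMI. A minimum, a thinned depth or a left-out cell changes which members are eligible, and the cause of the other moves was not tested. A wider split of 0.3, chosen after seeing the data, left the microglia counts as they were. Ratios of Adora2a and Nt5e in time-course microglia rest on at most 11 UMIs per sum.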
